A study of Mus musculus with 32 samples.

Results

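The genes described here are 10 genes of T cells and natural killer (NK) cells, measured with microarrays in livers of mice given systemic lipopolysaccharide (LPS) or saline: Trat1, Cd3d, Cd3e, Cd3g, Lck, Gzma, Gzmb, Prf1, Nkg7 and Cd8a. They were taken by name from the 27827 gene names on the array, and all 10 were among the 19204 names tested, which had a probe well above background on at least 4 of the 32 arrays. The question was whether other T cell genes rose with Trat1 after LPS. The set was selected on measured values, the rise of Trat1 20 h after LPS in wild-type mice. Gzmb and Lck had also already been named from wild-type values at 6 h. Wild-type values are therefore given as a description with no test. The tests are those in the mice labelled as E2f1 knockouts and, for the 9 members other than Trat1, those between genotypes. The 6 h genotype tests of Gzmb and Lck reuse the wild-type arrays that named them.

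The study hybridised liver RNA of 32 mice, 1 mouse per array, to Agilent mouse arrays in a single colour. E2f1 encodes a transcription factor of the E2F family, and LPS is the bacterial cell wall component that sets off the innate immune response. Wild-type mice are labelled E2F1+/+ of the strain B6x126 F2, with 6 given saline, 4 taken 6 h after LPS and 6 taken 20 h after LPS. Knockout mice are labelled E2F1-/- with a strain name made of B6 and 129, again with 6 given saline, 4 at 6 h and 6 at 20 h. Both saline groups are labelled 20 h, so the 6 h groups have no saline group of their own time. The titles of the wild-type mice read B6129, which disagrees with their strain label, so the labels do not settle whether both genotypes share a strain background. A difference of background, if there is one, cannot be told apart from genotype. The dose, the sex and the age of the mice were not in the labels used here.

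T lymphocytes recognise antigen through the T cell receptor, whose chains signal through the CD3 subunits and the kinase LCK. Trat1 encodes TRIM, a membrane adaptor that associates with this receptor complex. Cytotoxic T cells and NK cells kill target cells with granules that hold perforin and granzymes, and the liver normally contains many NK cells and some T cells beside its Kupffer cells, the resident macrophages. In whole liver RNA, fewer cells of a type and less RNA per cell cannot be told apart.

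Signals were scaled to the 75th percentile of each array, and levels below are log2 values relative to it, so 0 is the level of that percentile and 1 unit is a doubling. "Well above background" is the scanner software's own call for a spot. The 75th percentile itself lay between 281 and 1144 intensity units over the arrays, and 20129 to 28807 spots per array were well above background. The protocol text names lung as the organ extracted, but the hepatocyte genes Alb, Apoa1 and Cyp2c29 were well above background on 32 of 32 arrays, and the lung surfactant genes Sftpc and Sftpb on 0 of 32. Sftpa1, another surfactant gene, was above background on 27 arrays. The E2f1 probes were not lower in the labelled knockouts: medians of 1 probe were -3.36 in wild-type saline, -3.10 in knockout saline, -3.89 and -2.27 at 6 h and -5.81 and -2.09 at 20 h. The labels do not say which part of the gene was deleted, so this signal does not check the genotype labels, and the groups below are the labelled ones.

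Within the labelled knockouts, 3 arrays stood apart from their groups. On a scale that sets the wild-type saline mean at 0 and the wild-type 6 h mean at 1 over 5397 LPS-responsive genes, knockout saline replicate 1 lay at 0.885, while the other 5 arrays of its group lay between -0.01 and 0.06. Knockout 6 h replicate 1 lay at 0.126, while the other 3 of its group lay between 0.90 and 0.98. On the like scale for the wild-type 20 h response, over 6896 genes, knockout 20 h replicate 4 lay at 0.355, while the other 5 of its group lay between 0.96 and 1.06. Changes of the 10 genes from saline in knockouts are therefore given with all arrays and without the first 2, called the 2 libraries below. Those at 20 h are also given without all 3, called the 3 libraries, a setting added after these values were seen. The labels were kept as deposited.

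The signals come from probes of 60 bases, and 5 of the 10 that stand for a member are shown so that the target of each signal can be identified; each of these reads through at least 1 frame without a stop codon. The brighter Trat1 probe lies at chr16:48734961-48735020 on the minus strand of mm9, the Gzma probe at chr13:113885986-113886045 on the minus strand and the Prf1 probe at chr10:60766528-60766587 on the plus strand, by the array's own coordinates. The Cd3d probe (chr9:44794171-44794402, plus strand) and the Cd3g probe (chr9:44781716-44782300, minus strand) span more of the genome than their own length.
Trat1 probe: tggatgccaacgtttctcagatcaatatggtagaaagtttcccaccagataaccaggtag
Cd3d probe: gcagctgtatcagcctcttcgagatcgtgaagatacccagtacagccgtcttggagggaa
Cd3g probe: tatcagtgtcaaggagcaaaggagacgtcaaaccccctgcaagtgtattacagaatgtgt
Gzma probe: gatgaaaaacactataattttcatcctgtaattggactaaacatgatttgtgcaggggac
Prf1 probe: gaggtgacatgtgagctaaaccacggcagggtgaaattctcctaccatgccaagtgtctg
The longest run of bases that the Trat1 probe shares with a probe of any other gene name is 13, and that of the second, dimmer Trat1 probe is 15. Runs for the other members were 13 to 17 bases, so no probe shares a long stretch with a probe of another name.

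Promoters are shown for the 4 members that rose 20 h after LPS in the labelled knockouts, from 250 bases before to 50 after the start site, with motif matches in capitals (RefSeq, GRCm38.p6, read on the gene's strand).
Trat1, chr16:48772013-48772312, minus strand: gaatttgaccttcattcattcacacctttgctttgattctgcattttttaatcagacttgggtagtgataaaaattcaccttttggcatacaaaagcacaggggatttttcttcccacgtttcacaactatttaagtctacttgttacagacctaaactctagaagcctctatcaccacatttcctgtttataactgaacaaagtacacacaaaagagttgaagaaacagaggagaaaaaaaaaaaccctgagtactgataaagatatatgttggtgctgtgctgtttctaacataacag
Gzma, chr13:113100932-113101231, minus strand: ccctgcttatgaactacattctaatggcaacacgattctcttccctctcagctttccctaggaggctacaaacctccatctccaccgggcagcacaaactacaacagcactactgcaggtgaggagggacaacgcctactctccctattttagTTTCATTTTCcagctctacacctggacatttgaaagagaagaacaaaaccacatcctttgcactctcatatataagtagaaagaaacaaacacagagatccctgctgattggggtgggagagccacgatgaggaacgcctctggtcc
Gzmb, chr14:56262285-56262584, minus strand: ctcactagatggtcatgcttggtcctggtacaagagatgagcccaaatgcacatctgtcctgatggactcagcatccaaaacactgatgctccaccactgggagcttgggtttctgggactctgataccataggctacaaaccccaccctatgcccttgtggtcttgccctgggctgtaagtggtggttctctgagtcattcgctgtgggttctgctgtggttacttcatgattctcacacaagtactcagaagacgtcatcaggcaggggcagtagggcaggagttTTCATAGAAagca
Prf1, chr10:61297586-61297885, plus strand: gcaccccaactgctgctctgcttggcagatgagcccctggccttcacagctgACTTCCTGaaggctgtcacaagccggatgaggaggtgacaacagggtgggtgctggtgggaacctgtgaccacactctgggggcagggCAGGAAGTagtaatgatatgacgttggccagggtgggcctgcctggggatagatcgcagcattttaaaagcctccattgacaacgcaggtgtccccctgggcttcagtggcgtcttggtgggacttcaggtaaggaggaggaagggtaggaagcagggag
The motifs searched on both strands were the E2F motifs TTTCCCGC, TTTGGCGC, TTTCGCGC and TTTGCCGC, the STAT motif TTCNNNGAA, the interferon response motif (GAAA, any 2 bases, GAAA), the C/EBP motif TTGCNNAA, the NF-kB motif (GGG, any 2 bases, TTTCC) and the ETS motif CAGGAAGT. The Trat1 window held none of them. Gzma held the interferon response motif, Gzmb the STAT motif and Prf1 the ETS motif at 2 positions. Among the promoters of all 10 members, the E2F and NF-kB motifs were found in 0, the interferon response motif in 1, the C/EBP motif in 1 (Cd8a), the STAT motif in 3 (Cd3d, Gzmb and Nkg7) and the ETS motif in 3 (Lck, Cd3e and Prf1). Over 32851 mouse promoters of this length the shares were 2.27% for E2F, 8.30% for STAT, 3.44% for the interferon response motif, 10.8% for C/EBP, 1.63% for NF-kB and 3.33% for ETS. These matches describe letters in the windows and no binding was measured.

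Trat1 had the largest change of the 10 genes at 20 h. In wild-type saline livers its level was -7.93 at the lowest, -6.67 at the median and -3.33 at the highest, and only the highest array was well above background. At 6 h the 4 wild-type arrays read -6.19, -4.15, -5.75 and -4.06, all not well above background. At 20 h the 6 wild-type arrays ranged from 1.52 to 3.69 with a median of 2.23, all well above background. The 20 h arrays therefore lay far above every saline and 6 h array, while the 6 h arrays lay inside the saline range. The difference of means was 8.76 (SE 0.82) log2 units between 20 h and saline, a fold of 433 against a group in which 1 of 6 arrays was measured, and 1.33 (SE 0.92) between 6 h and saline. Between 20 h and 6 h it was 7.43, or at least 115-fold. Here "at least" sets the mean of the brighter group against a mean for the dimmer group. In that mean each array counts at its lowest signal well above background, or at its own level where that is higher.

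In the labelled knockouts Trat1 was low with saline, intermediate at 6 h and high at 20 h. The saline arrays ranged from -7.53 to -2.18 with a median of -6.28, and the highest, replicate 1, was the only one well above background. The 4 arrays at 6 h read -1.38, -1.20, 0.11 and 0.82, and the 6 at 20 h ranged from -0.99 to 3.71 with a median of 2.56, all 10 well above background. All LPS arrays lay above all saline arrays, and the 6 h and 20 h arrays overlapped. Trat1 was 8.08 log2 units (SE 0.82) higher at 20 h than with saline, with a limma adjusted p of 7.33e-07, and 8.83 (SE 0.74), adjusted p = 1.22e-09, without the 2 libraries. Without them no saline array was well above background, and the fold was at least 113. Leaving out all 3 libraries gave 9.46 (SE 0.66), adjusted p = 3.98e-11. Over 15 alternative settings, single arrays left out and single scans apart, the difference ran from 4.47 to 9.46. The limma adjusted p was at most 0.00190 in these, so the size depends on the processing. Within the 3 scans, each with 2 saline and 2 20 h arrays, the differences were 10.4 (adjusted p = 1.14e-05), 6.52 (adjusted p = 0.0300) and 7.28 (adjusted p = 0.621), and with the scan as a block the difference was 8.08 (adjusted p = 6.09e-07). At 6 h the rise was 5.49 (SE 0.92), adjusted p = 0.0156, and 6.56 (SE 0.90), adjusted p = 2.38e-06, without the 2 libraries. The 6 h call was lost in several other settings, among them normexp background correction (2.08, adjusted p = 0.108), the slide as a block (5.55, adjusted p = 0.0635) and a fit of only the groups compared (adjusted p = 0.356), and it was lost when any 1 of knockout saline replicates 3, 4 and 6 or 6 h replicates 2, 3 and 4 was left out (adjusted p 0.0521 to 0.224). The difference between 20 h and 6 h, 2.59, did not pass the test (adjusted p = 0.0529), but did without 20 h replicate 4, the lowest of its group (3.22, adjusted p = 0.00793) and without the 3 libraries (2.90, adjusted p = 0.00582).

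The array's own coordinates for the second, dimmer Trat1 probe, chr16:48730886-48730909 on the minus strand, cover fewer bases than its 60. This probe followed the same course as the brighter one. It was well above background on 0 of 12 saline arrays, 0 of 4 wild-type arrays at 6 h, 4 of 4 knockout arrays at 6 h and 11 of 12 arrays at 20 h. Its 20 h level ranged from -2.09 to 0.37 in wild-type mice and from -4.01 to 0.81 in labelled knockouts. On this probe the rise at 20 h was 5.82 in wild-type and 5.21 in knockout mice, with an adjusted p of 4.07e-06 for the latter (5.69 without the 2 libraries). At 6 h it read 0.19 in wild-type and 3.57 in knockout mice, adjusted p = 0.0394 for the latter (4.46 without the 2 libraries).

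**Figure D1:**
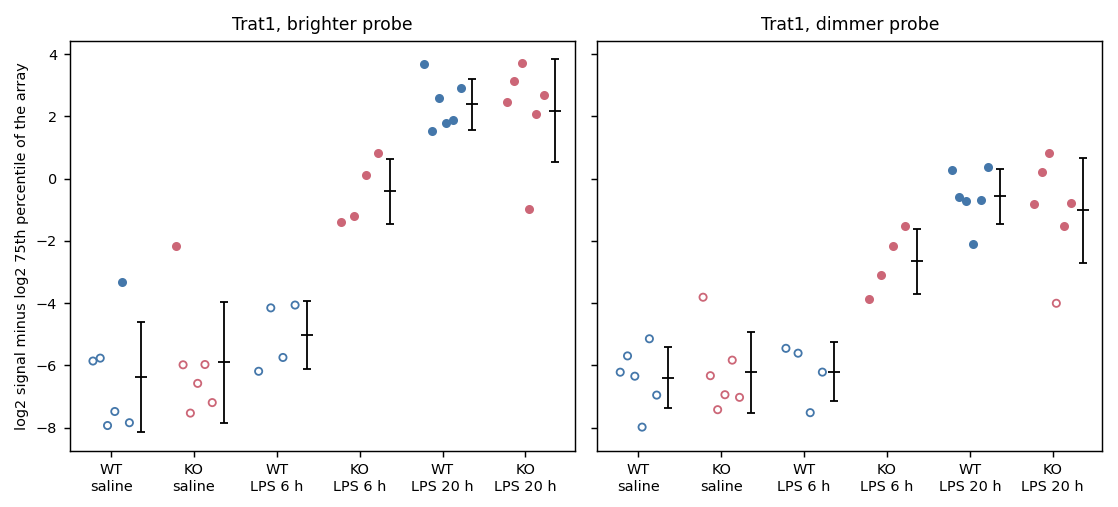
Level of both Trat1 probes on each array (log2 signal relative to the array's 75th percentile, vertical axis) by group (horizontal axis); filled points are well above background, open points are not, and black bars give the mean with its SD. On the brighter probe the 20 h arrays of both genotypes and the knockout arrays at 6 h sit above all other arrays, the highest of which is knockout saline replicate 1 at -2.18.

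At 6 h Trat1 read higher in labelled knockouts than in wild-type mice. The 4 labelled knockout arrays, -1.38 to 0.82, lay above the 4 wild-type arrays, -6.19 to -4.06, with no overlap. The difference was 4.62 (SE 1.01), at least 16.4-fold, with a limma adjusted p of 0.0173, and 4.95 (SE 0.94), at least 20.6-fold, adjusted p = 0.00645, without the 2 libraries. This test was added after the values had been seen, for a gene chosen on its values, so its p-values are given as a description. On the dimmer probe the difference was 3.54, adjusted p = 0.0239. The call was lost with normexp (2.38, adjusted p = 0.182), with the slide as a block (4.19, adjusted p = 0.189), when only the groups compared were fitted (adjusted p = 0.0801) and when either wild-type replicate 1 (4.24, adjusted p = 0.0828) or knockout replicate 4 (4.21, adjusted p = 0.0606) was left out. Of all genes tested, 0.849% were higher and 1.23% changed in either direction in this comparison, and 4.22% were higher with no overlap. Without the 2 libraries these shares were 0.911%, 1.37% and 7.88%. With saline the Trat1 difference between genotypes was 0.46 (-0.28 without the 2 libraries), and at 20 h it was -0.21, both as descriptions; without the 3 libraries the latter was 0.42.

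In order of mean level, Trat1 stood highest at 20 h, with wild-type mice at 2.39 ± 0.82 (SD, n = 6) and knockout mice at 2.18 ± 1.65 (SD, n = 6). Knockout mice at 6 h followed at -0.41 ± 1.06 (SD, n = 4). Then came wild-type mice at 6 h at -5.04 ± 1.09 (SD, n = 4), knockout saline at -5.91 ± 1.93 (SD, n = 6) and wild-type saline at -6.37 ± 1.77 (SD, n = 6). The 20 h groups overlapped each other, knockout 20 h overlapped knockout 6 h, and the 3 lowest groups overlapped each other.

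The CD3 subunits, which carry the signal of the T cell receptor into the cell, showed no such rise. Cd3d in wild-type mice lay between -5.58 and -1.53 with saline (median -3.13), read -3.52, -2.89, -3.72 and -4.24 at 6 h and lay between -4.04 and -3.20 at 20 h (median -3.58). In labelled knockouts it lay between -3.73 and -2.57 with saline (median -2.83), read -2.81, -3.40, -4.19 and -3.12 at 6 h and lay between -3.72 and -1.61 at 20 h (median -2.98). The groups overlapped throughout, and the knockout difference between 20 h and saline was 0.10 (SE 0.43), adjusted p = 0.892, and that between 6 h and saline was -0.40, adjusted p = 0.701. Cd3d read 0.13 (adjusted p = 0.864) at 20 h and -0.56 (adjusted p = 0.507) at 6 h without the 2 libraries, and -0.12 (adjusted p = 0.865) at 20 h without the 3. Cd3e, measured on all arrays, had medians of -1.78 with saline and -1.59 at 20 h in wild-type mice. In labelled knockouts its medians were -1.67 and -2.21, with 1 array at 20 h, replicate 6, at 1.05. The knockout change of Cd3e at 20 h was -0.05 (SE 0.43), adjusted p = 0.950, and 0.18, adjusted p = 0.793, without the 2 libraries and 0.33, adjusted p = 0.604, without the 3. At 6 h Cd3e read -0.39, -0.91, -0.27 and -1.80 in wild-type mice and -0.91, -1.42, -1.53 and -1.12 in labelled knockouts. The 6 h difference was 0.88 in wild-type mice (-0.059 with the slide as a block) and 0.32, adjusted p = 0.769, in knockouts (0.44, adjusted p = 0.599, without the 2 libraries). A second Cd3e probe was well above background on 0 of 32 arrays.

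Cd3g was well above background on 14 of 32 arrays. Its knockout saline arrays ranged from -4.64 to -3.60 with a median of -3.96 and its 20 h arrays from -6.31 to -3.08 with a median of -4.97, so the groups overlapped. The change was -1.01 (SE 0.41), adjusted p = 0.0713, and -1.40, adjusted p = 0.00392, without 20 h replicate 4. Cd3g fell by 1.13 at 20 h (SE 0.42, adjusted p = 0.0398) and by 1.46 at 6 h (adjusted p = 0.0317) when the 2 libraries were left out, and by 1.52 at 20 h (adjusted p = 0.00139) when all 3 were. In wild-type mice the differences were -0.93 at 20 h and -0.33 at 6 h.

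Cd8a, the coreceptor chain of cytotoxic T cells, was well above background on 10 of 32 arrays. Its knockout medians were -4.87 with saline and -4.84 at 20 h, and the 6 h arrays read -4.85, -3.68, -3.51 and -3.41. Replicate 1 of knockout saline was its highest saline array, at -2.77. The knockout change at 20 h was -0.26 (SE 0.41), adjusted p = 0.680. The one at 6 h was 0.63, adjusted p = 0.465. When the 2 libraries were left out Cd8a rose by 1.30 at 6 h (adjusted p = 0.0242), and its 20 h change was 0.08 (adjusted p = 0.895), or -0.12 (adjusted p = 0.826) without the 3. It then was lower at 20 h than at 6 h by a log2 difference of -1.22, adjusted p = 0.0366. Other Cd8a probes changed by 0.17 and 0.36 at 6 h with all arrays. Without the 2 libraries they changed by 0.52 and 0.72 at 6 h, and by only -0.04 and -0.34 between 20 h and 6 h. In wild-type mice the differences of the probe that stands for Cd8a were 0.78 at 6 h and -0.08 at 20 h.

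Lck, the kinase that starts T cell receptor signalling and is also made by NK cells, was measured on all arrays and was highest at 6 h in wild-type mice. In wild-type mice it ranged from -3.57 to -3.00 with saline, read -1.21, 0.77, -1.42 and -0.06 at 6 h and ranged from -2.66 to -1.73 at 20 h, so both LPS groups lay above saline and 20 h lay below 6 h. The differences from saline were 2.71 (SE 0.46) at 6 h and 0.89 at 20 h. Knockout saline arrays ranged from -3.51 to -0.54, the highest again being replicate 1, with a median of -2.58. Those at 6 h read -2.73, -1.37, -0.24 and -0.81, and those at 20 h ranged from -2.47 to -0.87. With all arrays the knockout change did not pass the test at 6 h (1.09, adjusted p = 0.161) or at 20 h (0.65, adjusted p = 0.256). Lck rose by 1.94 at 6 h (adjusted p = 3.76e-04) and by 1.01 at 20 h (adjusted p = 0.0162) without the 2 libraries, and by 0.95 at 20 h (adjusted p = 0.0277) without the 3.

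Of the granule genes, Gzmb, Gzma and Prf1 rose at 20 h in the labelled knockouts, by less than Trat1. Gzmb encodes granzyme B, a protease that triggers apoptosis in the target cell. In wild-type mice it ranged from -4.56 to -3.39 with saline, read 0.15, 2.01, 0.27 and -0.20 at 6 h and ranged from -1.61 to 0.15 at 20 h, with both LPS groups above all saline arrays. The differences were 4.51 (SE 0.76), 22.8-fold, at 6 h and 3.52 (SE 0.68), 11.5-fold, at 20 h. Knockout saline arrays ranged from -4.95 to -3.28 except replicate 1 at 0.02. At 6 h replicate 1 read -3.86 and the others 0.21, -0.01 and 0.22, and the 20 h arrays ranged from -1.55 to 0.68. Apart from these 2 libraries, LPS and saline arrays did not overlap. Gzmb rose by 3.09 at 20 h (SE 0.68), 8.50-fold, adjusted p = 0.00123, and by 3.79 (SE 0.42), 13.9-fold, adjusted p = 1.22e-07, without the 2 libraries and 3.97, adjusted p = 4.13e-08, without the 3. At 6 h the change was 2.64, adjusted p = 0.0520, with all arrays, and Gzmb rose by 4.35 (SE 0.50), 20.3-fold, adjusted p = 1.98e-07, without them. Within the 3 scans the 20 h differences were 4.84, 2.93 and 1.5 for Gzmb, 3.03, 2.21 and 1.17 for Gzma and 1.96, 1.99 and 1.04 for Prf1, and all 3 passed in the first scan. In the second Gzmb passed (adjusted p = 0.0395), while Gzma (adjusted p = 0.118) and Prf1 (adjusted p = 0.174) did not, and in the third none of these passed (adjusted p 0.828 to 0.843).

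Gzma encodes granzyme A, a protease of the same granules. With saline the wild-type arrays ranged from -5.36 to -4.29 and 3 of 6 were well above background. The wild-type 6 h arrays read -3.09, -1.24, -2.26 and -2.36 and the 20 h arrays ranged from -2.44 to -1.17, all above the saline arrays. The wild-type differences were 2.52 at 6 h and 2.84 (SE 0.39) at 20 h. Knockout saline arrays ranged from -4.67 to -2.25, replicate 1 being the highest, and 20 h arrays from -2.33 to -0.22, so that 1 saline array reached into the 20 h range. Gzma rose by 2.14 (SE 0.39), 4.40-fold, adjusted p = 1.88e-04, at 20 h in the labelled knockouts, and by 2.42, adjusted p = 9.72e-06, without the 2 libraries and 2.16, adjusted p = 1.22e-05, without the 3. The call was lost with normexp background correction (0.87, adjusted p = 0.173). At 6 h the arrays read -3.35, -2.61, -2.0 and -2.10, a change of 1.13 that did not pass (adjusted p = 0.119), against 1.69, adjusted p = 0.00371, without the 2 libraries.

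Prf1 encodes perforin, which forms the pores through which granzymes enter the target. It was well above background on 3 of 12 saline arrays, with medians of -5.68 in wild-type and -5.03 in knockout mice. Wild-type arrays at 6 h read -3.15, -3.12, -5.22 and -2.65, and those at 20 h ranged from -3.33 to -2.68, the latter above all saline arrays. The wild-type differences were 2.12 and 2.69. Knockout arrays at 20 h ranged from -4.08 to -1.87, overlapping saline through replicate 1 at -3.46. Prf1 rose by 1.66 (SE 0.47), 3.17-fold, adjusted p = 0.00891, at 20 h, and by 1.96, adjusted p = 6.44e-04, without the 2 libraries and 1.68, adjusted p = 0.00140, without the 3. With normexp the change was 0.29, adjusted p = 0.839. At 6 h its change was 1.33, adjusted p = 0.130, and it rose by 2.16, adjusted p = 0.00161, without them.

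Nkg7, a membrane protein of cytotoxic granules, was measured on all arrays and moved least among the granule genes. Wild-type arrays ranged from -2.82 to -2.20 with saline, read -3.01, -1.79, -2.77 and -2.26 at 6 h and ranged from -1.90 to -1.20 at 20 h, where they lay above all saline arrays, a difference of 1.06. Knockout arrays ranged from -3.10 to -1.41 with saline and from -2.18 to -0.15 at 20 h and overlapped. The knockout change was 0.60 (SE 0.29), adjusted p = 0.120, at 20 h. At 6 h it was -0.16, adjusted p = 0.839, and neither passed without the 2 libraries (0.64, adjusted p = 0.107, and -0.04, adjusted p = 0.953), nor at 20 h without the 3 (0.41, adjusted p = 0.268). A second Nkg7 probe read 1.34 in wild-type and 0.58 in knockout mice at 20 h.

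**Figure D2:**
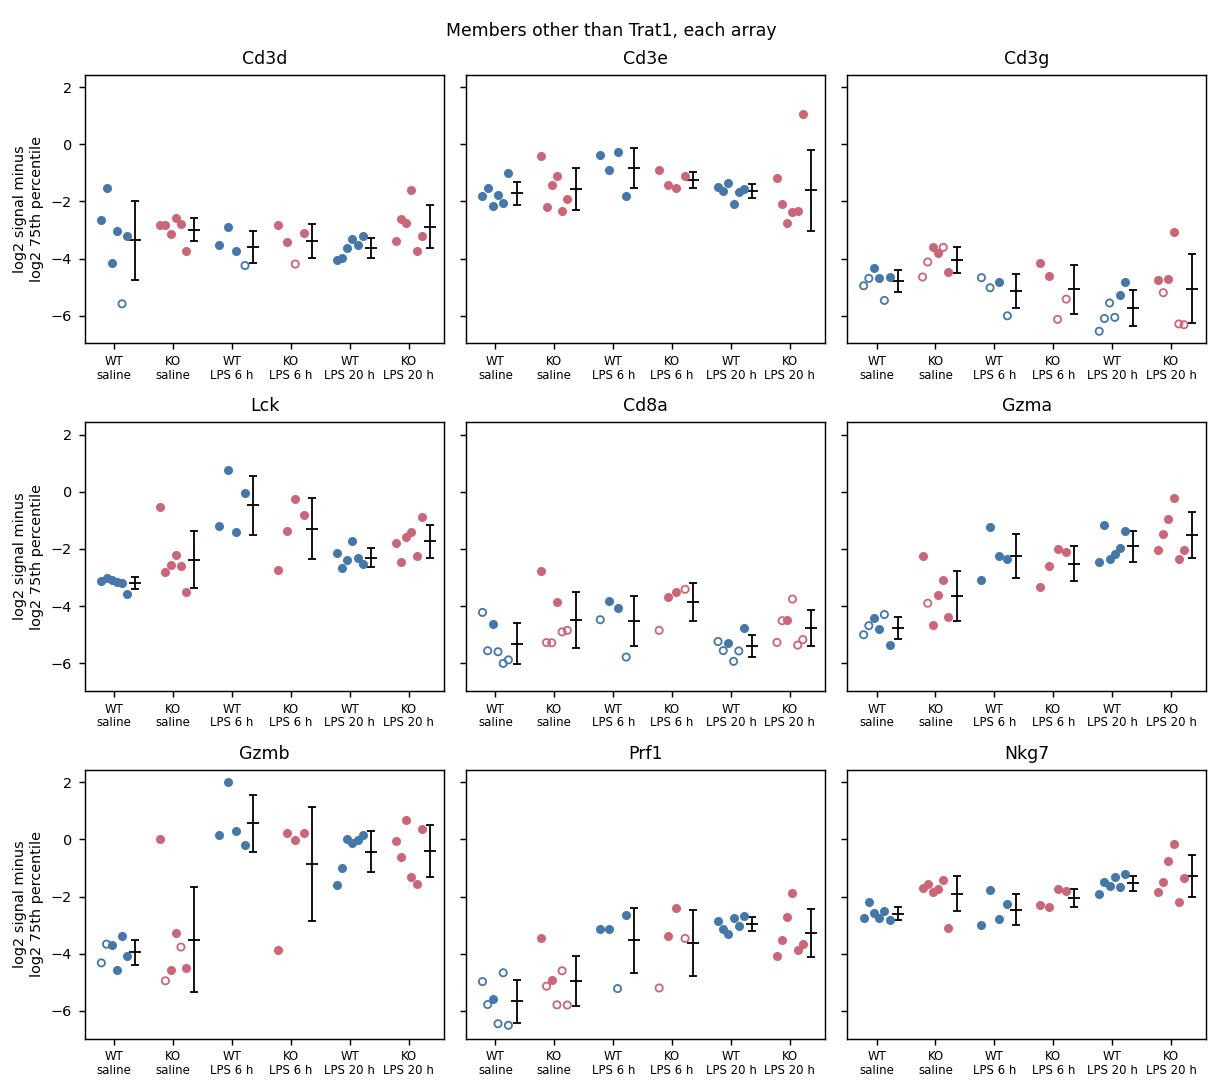
Levels of the 9 other genes on each array (log2 signal relative to the array's 75th percentile, vertical axes) by group (horizontal axes), with filled points well above background, open points not, and black bars for the mean with its SD. Gzmb, Gzma and Prf1 have higher means at 20 h than with saline in both genotypes. In knockouts the highest saline array of each lies within its 20 h range. Lck is highest at 6 h in wild-type mice, and LPS arrays of the CD3 genes and Cd8a overlap the saline arrays of their genotype.

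Counted over the members, 4 of 10 rose and 0 fell at 20 h in the labelled knockouts (Trat1, Gzmb, Gzma and Prf1), where 26.3% of all genes tested changed, 11.7% up and 14.6% down. The median change of the 10 was 0.62, against -0.09 for all genes. Without the 2 libraries 5 rose, with Lck, and 1 fell, Cd3g, where 34.9% of all genes changed, 16% up and 18.9% down. With all 3 libraries left out, Trat1, Lck, Gzma, Gzmb and Prf1 rose and Cd3g fell, where 41.1% of all genes changed, 19% up and 22.1% down. At 6 h 1 of 10 rose (Trat1) with all arrays, where 2.6% of all genes changed and 1.55% rose. Without the 2 libraries 6 rose and 1 fell, where 29.1% of all genes changed, 12.8% up and 16.4% down. Between 20 h and 6 h 0 of 10 passed in limma, where 15.6% of all genes did, and 3 had an unadjusted p under 0.05. Leaving out the 2 libraries, 1 was lower, Cd8a, where 22.4% of all genes changed and 10.8% were lower. Leaving out the 3, Trat1 was higher and Cd8a lower at 20 h, where 26.5% of all genes changed.

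Counts of groups that do not overlap need no model. In labelled knockouts 1 of 10 members, Trat1, was higher at 20 h on all arrays than on all saline arrays, against 1.51% of all genes, and 4 were without the 2 libraries, against 6.65%. At 6 h 1 was higher, Trat1 again, against 0.406%, and without the 2 libraries 6 were, against 15.3%, and 1 lower, against 20.9%. In wild-type mice 6 of 10 were higher with no overlap at 20 h, where 9.25% of all genes were, and 3 of 10 at 6 h, where 11.7% were. Between wild-type 20 h and 6 h 1 was higher (Trat1) and 1 lower (Lck), against 12.8% and 14.2% of all genes. Since wild-type values chose Trat1, nothing is read from the wild-type counts. Median changes over the 10 were 1.1 at 6 h and 0.98 at 20 h in wild-type mice, against 0.01 and -0.03 for all genes.

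**Figure D3:**
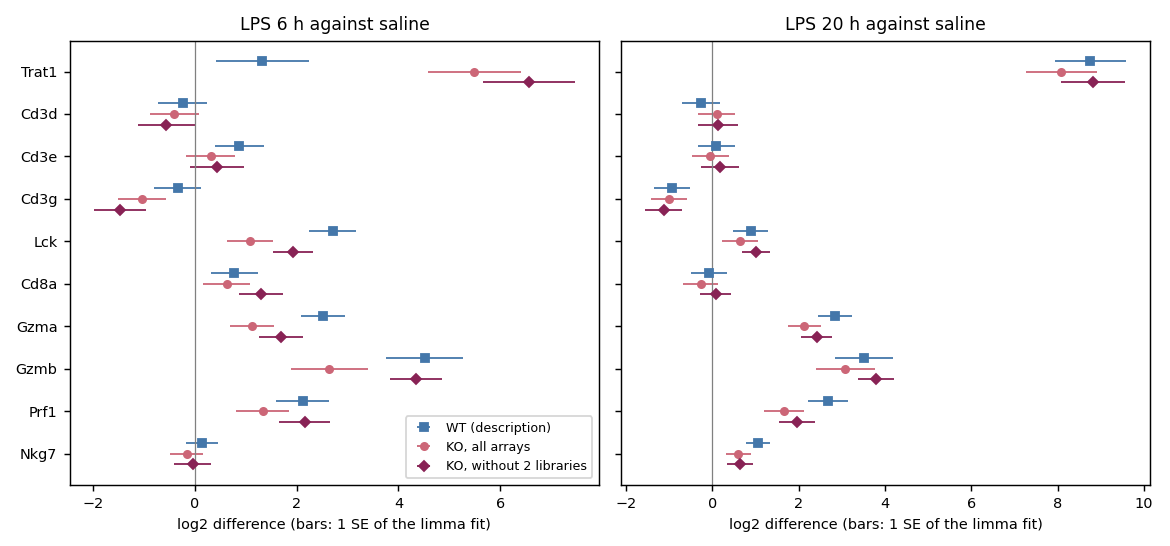
Difference from saline on the log2 scale (horizontal axis, bars ± 1 SE) for each of the 10 genes (vertical axis) at 6 h and at 20 h, in wild-type mice as a description and in labelled knockouts with all arrays and without the 2 libraries. Trat1 stands apart at 20 h, at 8.76 and 8.08, while the next, Gzmb, reads 3.52 and 3.09.

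Whether Trat1 rose more than each other member was tested on the difference of both levels within each knockout array, 20 h against saline. The excess of Trat1 was 7.98 over Cd3d, 8.13 over Cd3e, 9.09 over Cd3g and 8.35 over Cd8a. It was 7.44 over Lck, 5.95 over Gzma, 5.0 over Gzmb, 6.42 over Prf1 and 7.48 over Nkg7. In a two-sided exact permutation test over the 924 splits of 12 arrays, p was 0.00216 for Cd3e, Lck, Gzmb and Cd8a, the smallest value these splits can give, and 0.00433 for the other 5. Adjusted over the 9 comparisons, each was 0.00433. The 9 comparisons share the same Trat1 levels, which were higher on every 20 h array than on every saline array, so they are not separate results. Trat1 was well above background on 1 of the 6 saline arrays, so these sizes rest on levels that were mostly not measured there. A further test, added after these values were seen, raised every signal below an array's lowest well-above-background signal to that signal. The excess then ran from 3.47 over Gzmb to 6.81 over Cd3g, with exact permutation p-values adjusted over the 9 comparisons between 0.00390 and 0.0108. With this floor and without the 2 libraries it ran from 3.21 over Gzmb to 7.22 over Cd3g, adjusted exact p 0.00487 to 0.0108.

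Between genotypes, 0 of the 9 members other than Trat1 passed in limma with saline, where 0.333% of all genes did, at 6 h (1.23%) or at 20 h (0.323%). Likewise 0 of 9 passed for the difference of the LPS response between genotypes, at 6 h (0.141% of all genes) or 20 h (0.0417%). All of these counts were also 0 without the 2 libraries, where the shares of all genes were 0.349% with saline, 1.37% at 6 h, 0.521% at 20 h, 0.146% for the 6 h response and 0.0469% for the 20 h response. Cd8a was the second member, after Trat1, whose 6 h arrays were then all higher in knockouts than in wild-type mice. Of all genes, 7.88% were higher with no overlap there. The Cd8a difference of 1.0 did not pass in limma (adjusted p = 0.334), and the other Cd8a probes read -0.77 and 0.15. At an unadjusted p under 0.05 there were 2 with saline, Gzma (1.11 higher in knockouts, adjusted p = 0.397) and Nkg7 (0.70, adjusted p = 0.552), and 2 for the 6 h response, Lck (-1.62, adjusted p = 0.430) and Gzma (-1.39, adjusted p = 0.490). The other 3 comparisons had 0. Gzmb and Lck had been named from wild-type values at 6 h, so their 6 h comparisons between genotypes are not independent of that choice. With the 2 libraries left out the counts were 2 with saline, again Gzma (0.83, adjusted p = 0.698) and Nkg7 (0.67, adjusted p = 0.75), 1 at 6 h, Cd8a, and 0 for the 6 h response, where Lck read -0.77 (adjusted p = 0.699), and for both 20 h comparisons. The 20 h counts, adjusted or not, were also 0 without the 3 libraries, where 0.484% of all genes passed between genotypes and 0.026% for the response. For Trat1 the difference of the 6 h response was 4.16, and 5.23 without the 2 libraries, as a description.

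Other genes of the same pathways were read from lists, in the knockout comparison of 20 h with saline, where 11.7% of all genes rose and 14.6% fell (16% and 18.9% without the 2 libraries, 19% and 22.1% without the 3). Of the T cell receptor complex, 6 of 11 listed genes were measured, and 1 rose, Trat1, with a list median of 0.03 (-0.09 for all genes). The summed signal of these 6 genes, in units of the 75th percentile, was 0.44 to 0.83 in wild-type saline and 0.48 to 1.28 in knockout saline, 3.30 to 13.4 in wild-type mice at 20 h and 1.53 to 13.5 in knockouts at 20 h, a sum that includes Trat1. Of 15 measured genes of receptor-proximal signalling, 1 rose, Cd28, the costimulatory receptor (4.25, adjusted p = 1.43e-04). Zap70, the kinase that binds phosphorylated CD3 chains, fell by 1.89 (adjusted p = 2.51e-04). Without the 2 libraries 4 of the 15 rose, Cd28, Lcp2, Lck and Cd6, and Zap70 again fell. Cd28 then read 4.75 and Zap70 -2.07, and without the 3 libraries 5.47 and -2.38. The CD8 list, Cd8a and Cd8b1, had 0 of 2 changed. Its summed signal had a median of 0.251 in knockout saline and 0.170 in knockouts at 20 h, and of 0.178 and 0.128 in the wild-type groups.

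Beside the counts that follow, 11.7% of all genes rose and 14.6% fell (16% and 18.9% without the 2 libraries, 19% and 22.1% without the 3). Of 9 measured genes of the cytotoxic granule, 5 rose and 0 fell with a median of 1.60: Gzmb, Gzma, Prf1, Srgn (2.85, adjusted p = 2.30e-04) and Ctsc (1.60, adjusted p = 0.00117). Srgn encodes the proteoglycan that packs granule proteins and Ctsc the protease that activates granzymes, and both are also made by myeloid cells. Srgn read 3.46 and Ctsc 1.77 without the 2 libraries. Leaving out the 3, 5 granule genes again rose and 1 fell, Ctsw. Of 10 NK receptor and identity genes 1 rose, Cd244 (2.35, adjusted p = 0.00319), a receptor also carried by some T cells and myeloid cells. Il2rb of the same list, a cytokine receptor chain, read 0.30 and did not pass. Klrd1, which encodes the NK receptor chain CD94, fell by 1.1 (adjusted p = 0.0439) without the 2 libraries. Of 9 effector genes 2 rose, the chemokine Ccl5 (3.84, adjusted p = 0.00161) and Havcr2 (1.99, adjusted p = 0.00172), while interferon gamma, Ifng, read 3.30 (adjusted p = 0.0792) and rose by 4.61 (adjusted p = 0.00181) without the 2 libraries. Of 4 CD4 and regulatory T cell genes 2 rose, Il2ra (1.54, adjusted p = 0.00991) and Tnfrsf4 (0.78, adjusted p = 0.0220). These calls held without the 2 libraries, with Cd244 at 3.0, Ccl5 at 4.98, Havcr2 at 1.66, Il2ra at 1.91 and Tnfrsf4 at 0.98, and also without the 3.

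Markers of other cells moved in the same comparison, where 11.7% of all genes rose and 14.6% fell. These shares were 16% and 18.9% without the 2 libraries and 19% and 22.1% without the 3. Of 9 measured neutrophil genes 9 rose, with a median of 4.21, among them Ngp (6.40) and S100a9 (5.13). The summed neutrophil signal ran from 0.97 to 9.04 in wild-type saline, from 54.2 to 95.8 in wild-type mice at 6 h, from 53.4 to 132 at 20 h and from 68.9 to 169 in knockouts at 20 h. In knockout saline it ran up to 325, in replicate 1, with a median of 1.59, and in knockouts at 6 h from 8.78, in replicate 1, to 273. Of 7 monocyte genes 5 rose. Of 8 Kupffer cell genes 7 fell and 1 rose, with a median of -2.86, Cd163 (-4.30) and Vsig4 (-3.91) the most, and 4 of 7 B cell genes fell. With the 2 libraries left out the neutrophil genes again were 9 higher and 0 lower, the granule genes 5 and 0, the effector genes 5 and 0 and the Kupffer cell genes 1 and 6. Without the 3 libraries the neutrophil genes were 9 and 0, the Kupffer cell genes 1 and 7, and Cd163 read -5.50 and Vsig4 -4.70. Of 5 mast cell and basophil genes 2 rose and 1 fell with all arrays, of 3 lung epithelium genes 2 rose and 0 fell, of 7 dendritic cell genes and of 4 plasma cell genes 1 rose and 1 fell, and of 6 hepatocyte genes 0 rose and 4 fell. In knockouts the median summed signal went from 0.995 with saline to 13.6 at 20 h for the mast cell and basophil list, from 0.167 to 1.20 for lung epithelium and from 44.5 to 111 for dendritic cells. The part of these cells in the rise of Trat1 or of the granule genes was not tested.

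**Figure D4:**
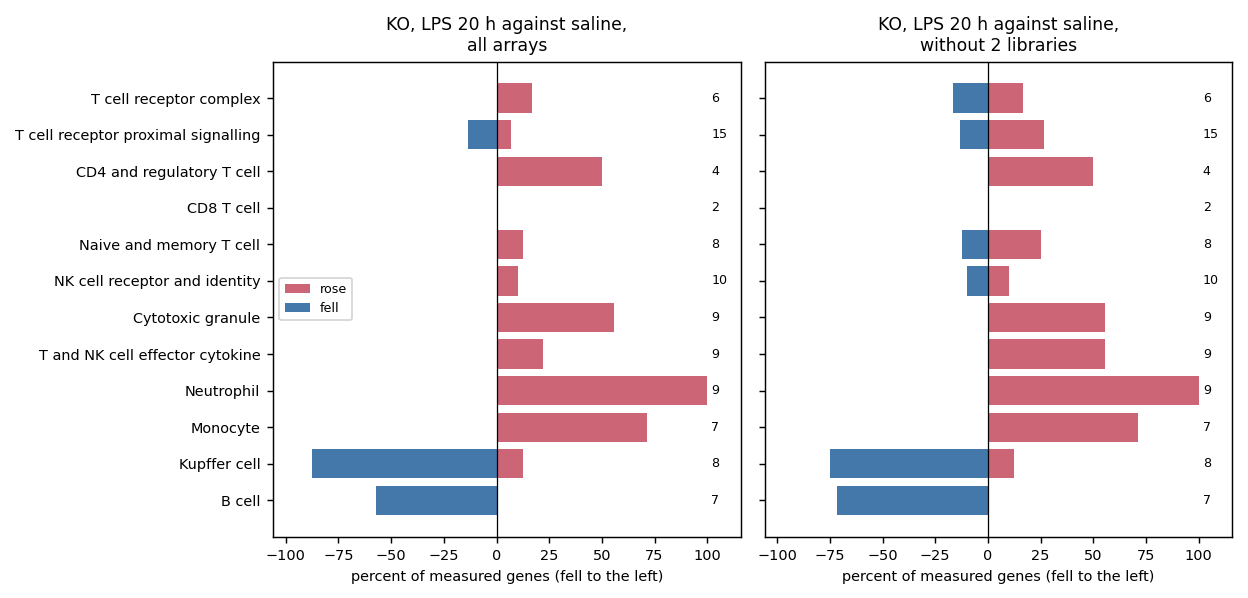
Percent of the measured genes of each list that rose or fell at 20 h against saline in labelled knockouts (horizontal axis), with all arrays and without the 2 libraries, with the number of genes measured at the right. All 9 neutrophil genes rose, against 1 of 6 genes of the T cell receptor complex and 5 of 9 of the cytotoxic granule.

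The genes closest to Trat1 over the 6 group means were looked for among the 19203 other names, by the root mean square difference of the centred means on the log2 scale. Clone, LOC, Riken, chromosome and accession-like names were passed over, which left out the name at rank 8. Sult1e1, an estrogen sulfotransferase, came first at 1.11, followed by Dnahc2, a dynein heavy chain, at 1.36, Trp63, a p53 family transcription factor, at 1.41, the antimicrobial lectin Reg3b at 1.49 and the protease inhibitor Slpi at 1.5. Reg3g (1.59), Chi3l3, a chitinase-like protein (1.62), and Crybb3, a lens crystallin (1.71), were also among the first 9. These 8 named genes, without the 2 libraries, all ranked within the first 10. The likeness rests on 6 means that share their arrays and the wild-type rise that chose Trat1, and is a description.

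None of the other members was close to Trat1. Of the 19203 names, Gzma ranked 340 at 2.89, Prf1 415 at 2.97, Gzmb 481 at 3.01 and Nkg7 1702 at 3.34. Lck, Cd3d, Cd8a, Cd3e and Cd3g ranked between 7419 and 15959. Likeness of course apart from size was not tested. The 20 h changes in labelled knockouts were 5.55 for Sult1e1 (adjusted p = 1.63e-05), 6.37 for Dnahc2, 5.41 for Trp63, 10.5 for Reg3b, 5.16 for Slpi, 9.69 for Reg3g, 5.50 for Chi3l3 and 5.91 for Crybb3. They ranged from 6.12 (Trp63) to 12.5 (Reg3b) without the 2 libraries and from 6.55 (Slpi) to 12.5 (Reg3b) without the 3.

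**Figure D5:**
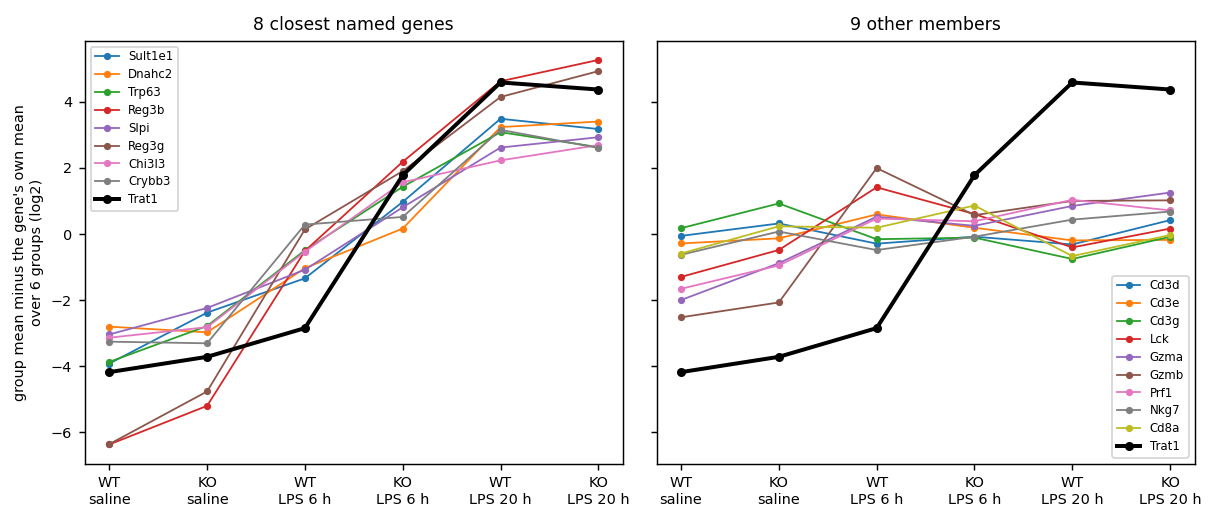
Centred group means (log2, vertical axis) over the 6 groups (horizontal axis) for Trat1 in black, the 8 closest names that are not clone, LOC, Riken, chromosome or accession-like names (ranks 1 to 7 and 9) and the 9 other members, with lines joining the groups of one gene. The 8 names follow the Trat1 line upward at 20 h, and Cd3d, Cd3e, Cd3g and Cd8a do not.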

How the data were processed

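Liver RNA of 32 mice was measured with Agilent single-colour arrays in 6 groups. Per the file headers, the authors' scanner files were made with Feature Extraction 10.7.1.1, whose processed signal is a background-subtracted intensity. The intensity of each spot was divided by the array's 75th percentile and taken to the log2 scale, and the deposited series table, on a log2 scale by comparison with the authors' scanner files and with a normalization that the sources used here do not give, served as an alternative.

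Control spots and outlier flags were left out (361 missing values). Spots of a probe were averaged, 28345 probes well above background on at least 4 of 32 arrays were kept, and each gene name was represented by its brightest probe. Differences were tested with limma 3.58.1 in R 4.3.3, with 6 group means fitted over all 32 arrays and Benjamini-Hochberg adjustment over 19204 names, and the threshold was an adjusted p of 0.05. The number of arrays limits the precision. The fit was tested on simulated data with independent normal noise and no array standing apart from its group, unlike the labelled knockouts.

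The members and lists were chosen with earlier results of these data known. All 10 members were named in each comparison, with the 8 names closest to Trat1 after clone, LOC, Riken, chromosome and accession-like names were left out and, of each list, up to 3 genes that passed with the largest change and the brightest that did not; Ctsc, Ctsw, Lcp2, Cd6, Prf1 among the granule genes and Ifng were named after their values were seen. Of 163 listed genes 128 were measured. Some results of these lists are not reported here.

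Alternatives were quantile normalization, normexp (offset 50), the array median, the deposited table, no filter or a filter of 16 arrays, the mean over probes, blocks for slide, scan or replicate number, another variance model, only the groups compared, each array left out in turn, values within each scan, and the 2 libraries left out; leaving out 3 libraries and raising dim signals to each array's lowest signal well above background were added after seeing the data. No pair of groups had every same-numbered pair of arrays correlated above 0.1 (correlations -0.69 to 0.34), so replicate numbers were not taken as pairs.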

Additional observations from a re-analysis of the deposited data

Results flagged for a closer look

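Of 60 sets of a gene and a group, 6 had 1 array farther from the rest than Dixon's critical value, where chance gives about 1 in 20. Trat1 read -2.18 in knockout saline replicate 1, its highest array, with the next at -5.97, and -0.99 in knockout 20 h replicate 4, its lowest, with the next at 2.08. Gzmb read 0.022 in knockout saline replicate 1, with the next at -3.28, and -3.86 in knockout 6 h replicate 1, with the next at -0.01. These 3 arrays also stood apart over all LPS-responsive genes: knockout saline replicate 1, knockout 6 h replicate 1 and knockout 20 h replicate 4, the last at 0.355 on the 20 h scale, where the other 5 of its group lay between 0.96 and 1.06. Lck read -3.57 in wild-type saline replicate 6, its lowest array, with the next at -3.21. Nkg7 read -3.10 in knockout saline replicate 6, its lowest, with the next at -1.84.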

How the results depend on the processing

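In labelled knockouts Trat1 rose more than each of the 9 other members at 20 h (8 where the deposited table was used) under every alternative in which this was computed, and its 20 h rise in labelled knockouts passed in all of them except within the third scan. The counts of 0 members between genotypes and for the difference of responses held throughout. The number of members called between 6 h and saline in labelled knockouts, 1, became 0 with normexp, the slide block, the replicate block and only the groups compared, 2 with the array median, the stricter filter, the scan block and the other variance model, 3 within the second scan, and 7 without the 2 or the 3 libraries. Leaving out single arrays gave 0 to 5, with 5 without replicate 1 of either group. Between 20 h and 6 h in knockouts, 0 became 1 with quantile normalization, normexp, the deposited table, the stricter filter, the scan block, the other variance model, within the second scan and without the 2 libraries and 2 without the 3, and leaving out single arrays gave 0 to 1. Between 20 h and saline in knockouts, 4 became 2 with normexp and within the second scan, 0 within the third, 5 within the first and 6 without the 2 or the 3 libraries, and leaving out single arrays gave 4 to 6. In wild-type mice 6 groups apart at 20 h became 1 with normexp, and 2 between 20 h and 6 h became 1 with normexp and the array median, and 2 to 5 with single arrays left out (5 without 6 h replicate 4).

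Directions turned by more than the SE, or with a call, as follows; the cause was not tested. Smaller turns, 152 in number, are not listed; among them Trat1 ran from -0.52 to 0.42 between genotypes at 20 h, and from -1.28 to 0.071 for the difference of the 20 h response, with single arrays left out. With normexp, wild-type 6 h changes were -0.28 for Trat1 and -0.26 for Cd8a, and the Cd3g difference of the 6 h response was 0.11. With the slide block, Cd3e read -0.059 at 6 h and -0.38 at 20 h in wild-type mice, 0.52 between genotypes at 6 h and 0.78 for the 6 h response. Without the 2 libraries, knockout 20 h against 6 h was -0.55 for Gzmb and -0.20 for Prf1, the saline genotype difference of Gzmb -0.26, and the 6 h response difference 0.037 for Prf1 and 0.52 for Cd8a. The 3 libraries left out gave the same values except -0.37 for Gzmb and -0.48 for Prf1 (20 h against 6 h), and Trat1 read 0.70 for the 20 h response difference. With single arrays left out, the ranges were -0.070 to 0.74 (Cd3d) and -0.26 to 0.74 (Gzmb) between genotypes with saline, -0.55 to 0.81 (Gzmb) and -0.20 to 0.73 (Prf1) for knockout 20 h against 6 h, and -0.52 to 0.25 for Cd3e between genotypes at 20 h. Within the first scan, Cd8a read 0.19 for knockout 20 h against saline, Gzmb -0.41 between genotypes with saline, Trat1 0.62 and Cd3e -0.44 between genotypes at 20 h, and the 20 h response difference 0.50 for Lck, 0.063 for Gzma and 0.68 for Gzmb. Within the second, Cd8a read 0.53 and 0.85 for the same change and response difference, Gzmb -1.53 for 20 h against 6 h, the saline genotype difference -0.99 for Trat1, -0.47 for Cd3e and -0.57 for Gzmb, and Cd3e -0.57 at 20 h. Within the third, Lck read -0.28 for knockout 20 h against saline. The replicate block changed no other call. Signal over background limits Cd3g and Cd8a, which the stricter filter left out, and the deposited table has no row for Cd8a in what was used here.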
